A study of Mus musculus with 9 samples.

Results

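The AP-1 and BATF transcription factors were followed in CD4+ T cells of mice before and after activation in culture, from wild-type mice and from mice with a conditional knockout of the BMP receptor gene Bmpr1a. The set was a list of 9 gene symbols fixed by name: Fos, Fosb and Fosl2 of the Fos family, Jun, Junb and Jund of the Jun family, Batf and Batf3 of the BATF family, and Atf3. All 9 had a row among the 25759 gene rows of the table. RNA sequencing covered 9 libraries in 3 groups of 3, and all mice were labelled C57BL/6, aged 8 to 12 weeks and carriers of a Foxp3GFP reporter transgene. Naive wild-type (WT) cells were sorted directly from lymph node and spleen as CD4+CD44-CD62+Foxp3GFP-, without treatment. Activated WT cells came from mixed lymph node and spleen cells that were cultured for 3 days with the T cell mitogen ConA (2 ug/ml) plus LPS (10 ng/ml) and then sorted as CD4+CD44+CD62L-Foxp3GFP-. Activated knockout (KO) cells were prepared in the same way from BMPR1a/CD4cre conditional knockout mice, in which Cre recombinase is driven by the Cd4 promoter. The sort on CD44 and CD62L, the culture, the ConA and the LPS changed together between the naive and the activated groups, so their parts cannot be told apart. The labels do not state whether the libraries of a group are from different animals or cultures, and every p-value below therefore rests on the spread between libraries, which may be technical.

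AP-1 is a dimer of basic leucine zipper (bZIP) proteins, classically a Fos protein with a Jun protein, that binds the TGANTCA element in many promoters and enhancers. T cell receptor signalling through MAP kinases induces Fos and Jun rapidly and transiently, and AP-1 then acts with NFAT on cytokine genes such as Il2. BATF proteins lack the transactivation domain of Fos, pair with Jun proteins, and bind composite elements together with IRF4 in T cells. ATF3 is a stress-induced bZIP protein of the ATF/CREB group that can also pair with Jun proteins.

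Promoter sequences are shown for Fos, Jun and Batf, because Fos and Batf lie close together on chromosome 12 and changed in opposite directions on activation, while Jun did not pass the test. They come from RefSeq for GRCm38.p6, read 5′ to 3′ on the gene's strand, and end at the base before the gene start in the GENCODE annotation of GRCm38. Capitals mark a TGACGT motif in Fos and in Batf, a TATAAA motif in Fos, and a CCAAT motif in Jun, all on the gene's strand. The Fos window is chr12:85473640-85473889 on the plus strand, that of Jun is chr4:95052223-95052472 on the minus strand, and that of Batf is chr12:85686470-85686668 on the plus strand. The Batf window is shorter because GENCODE starts the gene 51 bases before RefSeq does.
Fos: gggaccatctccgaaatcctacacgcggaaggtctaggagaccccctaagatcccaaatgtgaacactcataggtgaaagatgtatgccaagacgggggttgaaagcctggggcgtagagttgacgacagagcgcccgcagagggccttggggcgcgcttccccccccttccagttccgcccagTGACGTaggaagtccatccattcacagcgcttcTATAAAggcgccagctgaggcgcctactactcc
Jun: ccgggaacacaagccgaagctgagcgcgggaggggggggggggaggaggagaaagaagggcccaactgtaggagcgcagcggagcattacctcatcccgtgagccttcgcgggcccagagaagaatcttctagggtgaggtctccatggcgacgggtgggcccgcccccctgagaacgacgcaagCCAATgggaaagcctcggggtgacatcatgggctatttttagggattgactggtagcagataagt
Batf: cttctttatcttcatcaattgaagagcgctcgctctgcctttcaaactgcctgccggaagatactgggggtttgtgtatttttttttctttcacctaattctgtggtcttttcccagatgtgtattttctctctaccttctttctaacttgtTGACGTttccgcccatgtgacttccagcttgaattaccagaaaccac

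All 9 genes matched the RefSeq promoter table, and the 250 bases before each RefSeq start were searched on both strands. The TGACGT core of the ATF/CREB element was present in 3 of the 9, with 6.47% of all 32851 promoters holding it. It lay 66 to 61 bases before the start of Fos, 98 to 93 before that of Batf and, on the opposite strand, 8 to 3 before that of Atf3. This motif, which the longer TGACGTCA contains, was chosen after the sequences were seen. TATAAA was found 33 to 28 bases before the start of Fos and in none of the other 8 genes, against 12.4% of all promoters. CCAAT was found before Jun and Junb, against 33.8% of all promoters. TGANTCA (6.75% of all promoters), TGACGTCA (1.55%) and the CArG box (1.47%), the element bound by serum response factor, had no match in these windows of the 9 genes. A match is a description of letters and not of binding. Sequence more than 250 bases before the start was not searched, so no match here does not mean that a gene lacks the element.

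Expression is given in FPKM, which scales fragments to transcript length and to the mapped fragments of the library, so levels can be compared between genes on a per-length scale. Between 12922 and 13395 genes reached 1 FPKM in each library, and the number of reads behind a value is unknown. The summed FPKM of all genes was 3446190 to 5731993 in naive WT libraries and 10295949 to 13114288 in activated WT libraries. In activated KO libraries it was 6959897 to 10530017. The source of this difference between groups was not tested. The summed FPKM of 8 T cell markers, led by Cd3g, was 2372.5 to 2805.4 in every library. Single genes of that list did move, since limma called Cd3g, Cd28 and Cd3d higher and Lck and Lat lower in activated than in naive WT. Other cell types' markers differed between libraries. The sum of 8 neutrophil markers, led by S100a9, was 58.5, 685 and 114 FPKM in naive WT replicates 1, 2 and 3 and 0.637 to 1.93 in the 6 activated libraries, where Camp and Ngp were at 0 in all 3 WT libraries. The sum of 7 B cell markers, led by Cd79b, was 62.4, 3.2 and 201 in the naive libraries and 131 to 198 in the activated ones, and that of 2 CD8 T cell markers, led by Cd8b1, was 9.48 to 41.4 against 147 to 279. The sums for macrophages (8 markers, led by Lyz2) were 24.5 to 199 in naive cells and 7.9 to 13.1 in activated ones, and those for NK cells (6, led by Tyrobp) 11.5 to 65 and 2.04 to 6.18. The erythroid sum (6, led by Hba-a2) was 63.6 to 84.2 and 0.816 to 1.72, the dendritic cell sum (7, led by Itgax, with Clec9a at 0 in all activated libraries) 1.36 to 8.19 and 1.78 to 2.1, and the mast cell and basophil sum (5, led by Cpa3) 0.325 to 2.31 and 1.15 to 10.5. The targeted gene, Bmpr1a, was at 0.46, 0.311 and 0.336 FPKM in naive WT, 2.16, 2.92 and 1.4 in activated WT and 0.957, 1.93 and 1.2 in activated KO libraries. The KO and the activated WT libraries overlapped for Bmpr1a, and limma's test did not call it between them (log2 fold change -0.41, adjusted p = 0.261). A value for the whole gene does not show whether a deleted exon is missing from its transcripts, so it does not check the genotype.

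Junb had the highest level of the 9 genes in every group, at 117 ± 37.6 FPKM in naive WT, 108 ± 4.32 in activated WT and 114 ± 13.6 in activated KO cells (SD, n = 3 each). In naive WT cells Jund followed Junb, and their ranges did not overlap. Batf, Jun and Fos came next with overlapping ranges, then Fosl2 apart from its neighbours, and then Batf3, Fosb and Atf3, whose ranges overlapped. In activated WT cells Batf stood between Junb and Jund, with no overlap on either side. Jun, Fosl2 and Fos overlapped below them, Batf3 and Atf3 overlapped in turn, and Fosb was lowest. In activated KO cells the ranges of Batf and Jund overlapped, as did those of Jun, Batf3 and Fosl2, and those of Fos and Atf3, with Fosb again lowest. The plot of levels by library shows this ranking with each replicate.

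**Figure D1:**
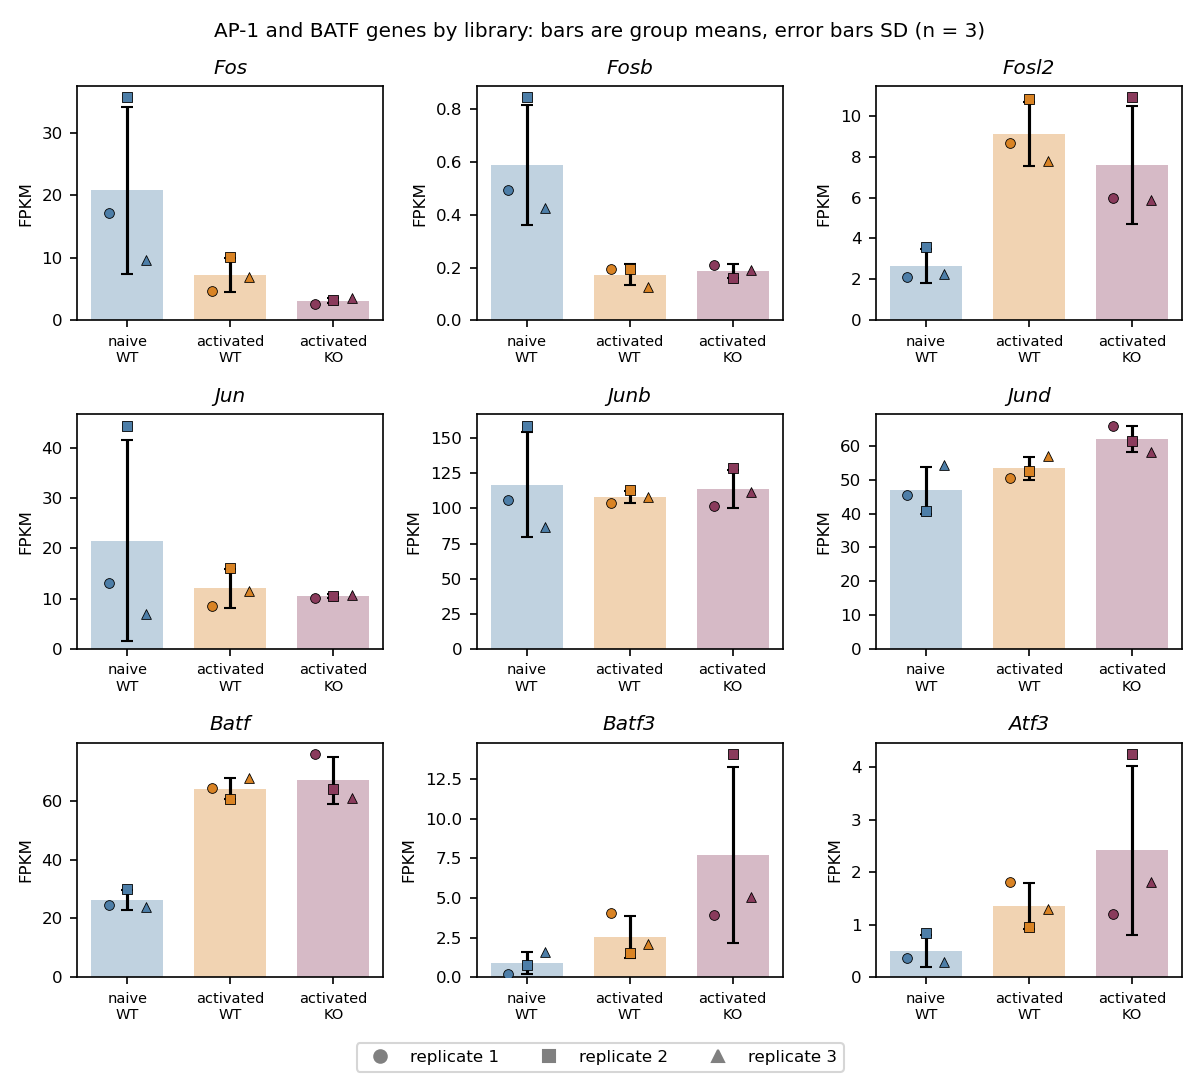
FPKM of the 9 genes in naive WT, activated WT and activated KO cells, with each library as a point (circles, squares and triangles for replicates 1, 2 and 3), the group mean as a bar and the SD as an error bar. Fosl2 and Batf are higher in all 6 activated libraries than in the 3 naive ones, and Fos is lower in the 3 KO libraries (2.69 to 3.62 FPKM) than in the 3 activated WT libraries (4.78 to 10.2 FPKM).

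The first comparison, activated WT with naive WT cells, asked how these factors differ with activation. Batf and Fosl2 rose and Fos fell, while no call was made for Jun, Junb, Jund, Batf3 or Atf3 (limma, adjusted p under 0.05 over all genes tested). Of the 9 genes, 8 reached the mean of 0.5 FPKM needed for testing and Fosb did not. Among the 8 tested, 2 were higher and 1 was lower. Of all 15126 genes tested, 26.2% were called higher and 25.8% lower, 52.0% in all, so this share is not above the background. The median log2 fold change was 0.42 over the 8 genes and -0.01 over all genes tested. Log2 fold changes were taken after adding 1 to each FPKM value, so that changes at low levels are understated. In such bulk samples, fewer cells of a type and less RNA per cell cannot be told apart. The summed CD8 T cell markers were 9.48 to 41.4 FPKM in naive WT and 147 to 230 in activated WT libraries. The part of CD8 T cells in the changes below was not tested.

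Fos, on chromosome 12 (GRCm38, 85473890 to 85477273, plus strand), encodes the founding Fos protein and is a classical immediate early gene. It stood at 17.1, 35.7 and 9.62 FPKM in naive WT replicates 1, 2 and 3 and at 4.78, 10.2 and 6.99 in the activated WT replicates. The groups overlapped, since activated replicate 2 lay above naive replicate 3. The mean fell 2.85-fold, from 20.8 ± 13.4 to 7.31 ± 2.71 FPKM (SD, n = 3 each), with a log2 fold change of -1.26 (SE 0.427, 95% interval -2.25 to -0.27, limma adjusted p = 0.0386). The call was lost in 9 of 19 alternatives, over which the adjusted p ran from 0.00872 to 0.124. Among those 9 were the fit of only the 6 libraries compared (limma adjusted p = 0.0895) and the fit with no filter on low values (limma adjusted p = 0.0655). Leaving out naive replicate 2 moved the log2 fold change to -0.79 (limma adjusted p = 0.0838), and the call was also lost without naive replicate 1 (-1.30), activated WT replicate 1 (-1.02) or 3 (-1.26), or any of the 3 KO libraries (-1.26 each time). The naive library with the highest Fos level, replicate 2, also had the highest marker sums for neutrophils, macrophages, NK cells, erythroid cells, and mast cells and basophils. The part of other cells in the Fos difference was not tested.

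Fosb, on chromosome 7 (19302696 to 19310051, minus strand), encodes a Fos protein induced by the same stimuli as Fos and was close to the bottom of the measured range. Its level was 0.494, 0.845 and 0.425 FPKM in naive WT cells and 0.195, 0.195 and 0.126 in activated WT cells, so all 3 naive libraries lay above all 3 activated ones. Its mean over the 9 libraries was under the minimum for testing. With no filter on low values its log2 fold change was -0.43 (SE 0.0898, limma adjusted p = 0.00868).

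Fosl2, on chromosome 5 (32135801 to 32157842, plus strand), encodes FRA-2, a Fos-related protein that lacks a strong transactivation domain. It was at 2.11, 3.59 and 2.25 FPKM in naive WT and at 8.65, 10.8 and 7.77 in activated WT libraries. The groups did not overlap, and the mean rose 3.42-fold, from 2.65 ± 0.817 to 9.08 ± 1.56 FPKM (SD, n = 3 each). The log2 fold change was 1.48 (SE 0.249, limma adjusted p = 0.00175), and it remained called in all 19 alternatives, between 1.36 and 1.76. Within the Fos family, the leading transcript was therefore Fos in naive cells, with 84.6% ± 5.67 of the summed Fos, Fosb and Fosl2 FPKM, and Fosl2 in activated WT cells, with 55.6% ± 6.86 (SD, n = 3 each). The Fosl2 share was 10.7%, 8.95% and 18.3% in the naive libraries and 63.5%, 51.1% and 52.2% in the activated WT libraries.

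The Jun family genes encode the partners of Fos and BATF proteins, and none of the 3 passed the test on activation. Jun, on chromosome 4 (95049034 to 95052222, minus strand), was at 13.1, 44.4 and 7.01 FPKM in naive WT and at 8.51, 16.1 and 11.4 in activated WT libraries. The naive libraries spanned both sides of the activated ones, and the log2 fold change was -0.45 (95% interval -1.74 to 0.84, limma adjusted p = 0.524), or 0.25 without naive replicate 2. Junb, on chromosome 8 (84974484 to 84978718, minus strand), encodes a Jun protein that is a weaker activator than Jun in many settings. It was at 106, 159 and 86.6 FPKM in naive WT and at 104, 113 and 108 in activated WT libraries, a log2 fold change of -0.06 (95% interval -0.53 to 0.40, limma adjusted p = 0.811) that became 0.18 without naive replicate 2. Jund, on chromosome 8 (70698949 to 70700616, plus strand), encodes the Jun protein that is typically constitutive. It was at 45.6, 40.8 and 54.4 FPKM in naive WT and at 50.7, 52.5 and 57.1 in activated WT libraries, with overlapping groups and a log2 fold change of 0.19 (95% interval -0.06 to 0.44, limma adjusted p = 0.171). The Jund difference passed the threshold with array quality weights (0.20), a setting that called 66.8% of all genes, and without naive replicate 3 (0.30). Junb made up 62.6% ± 3.59 of the summed Jun family FPKM in naive WT cells and 62.4% ± 1.33 in activated WT cells (SD, n = 3 each), with overlapping groups (exact permutation test, two-sided, p = 0.9).

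The 3 Jun genes and Atf3 overlap other annotated genes, and the strand setting of the counting is not given in the sources used here. Jun shares 689 bases with the antisense gene Junos, which was at 0.89 to 3.63 FPKM. Junb shares 351 bases with Prdx2 on the opposite strand, a peroxide-reducing enzyme whose mean rose from 44.1 to 95.4 FPKM on activation (log2 fold change 1.10, limma adjusted p = 3.38e-05). Jund shares 919 bases with the antisense gene Gm11175, which was at 110 to 176 FPKM, above Jund itself in every library. Atf3 shares 108 bases with Gm24748, which has no row in the table used here. Reads of these pairs cannot be told apart without strand, so the values of Jund in particular are uncertain.

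Batf, on chromosome 12 (85686669 to 85709087, plus strand), encodes the BATF family member required for several effector T cell programmes. It was at 24.7, 30.1 and 24 FPKM in naive WT and at 64.4, 60.5 and 67.8 in activated WT libraries, with no overlap. The mean rose 2.45-fold, from 26.3 ± 3.34 to 64.2 ± 3.69 FPKM (SD, n = 3 each), with a log2 fold change of 1.26 (SE 0.112, limma adjusted p = 8.25e-05). It remained called in all 19 alternatives, between 1.2 and 1.36. Batf3, on chromosome 1 (191097847 to 191108945, plus strand), is best known for the development of cross-presenting dendritic cells. It was at 0.234, 0.8 and 1.61 FPKM in naive WT and at 4.05, 1.51 and 2.12 in activated WT libraries, where replicate 2 lay below naive replicate 3. Its log2 fold change of 0.92 (95% interval -0.17 to 2.02) was not called (limma adjusted p = 0.137), but was with array quality weights (1.13, adjusted p = 0.0289). The summed dendritic cell markers were 1.36 to 8.19 FPKM in naive WT and 1.84 to 2.1 in activated WT libraries. Clec9a was at 0 in all 6 activated libraries, while Xcr1, another gene of that list, was at 0.0479 to 0.149 FPKM in naive and 0.306 to 0.488 in activated libraries. The part of such cells in the Batf3 values was not tested.

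Atf3, on chromosome 1 (191170296 to 191218039, minus strand), was at 0.363, 0.849 and 0.299 FPKM in naive WT and at 1.82, 0.956 and 1.29 in activated WT libraries. The groups did not overlap, yet the log2 fold change of 0.65 (95% interval -0.09 to 1.38) was not called (limma adjusted p = 0.122). It passed in 3 of 18 alternatives, which were the fit of only the 6 libraries compared, array quality weights and the fit without KO replicate 2. Counting Fosb, Fosl2, Batf and Atf3, the naive and activated WT libraries did not overlap for 4 of the 9 genes, against 59.4% of all genes tested (29.6% higher and 29.8% lower). Of these 4, Fosb was lower and the other three were higher.

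**Figure D2:**
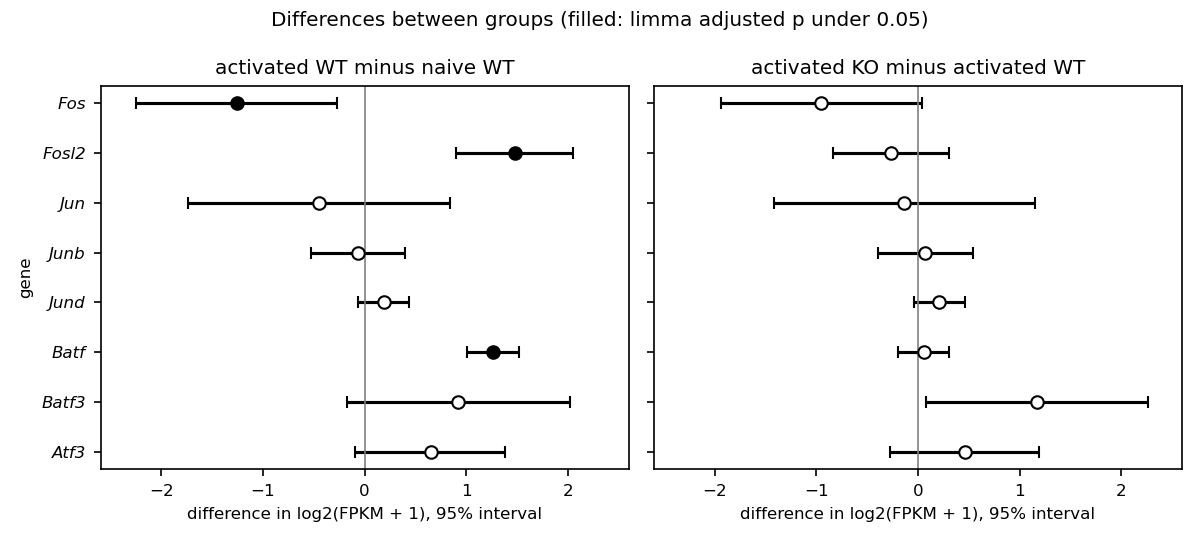
Differences in log2(FPKM + 1) with 95% intervals for the 8 genes tested, activated WT minus naive WT on the left and activated KO minus activated WT on the right, with filled points for a limma adjusted p under 0.05. Fos, Fosl2 and Batf are filled on the left, none is filled on the right, and the intervals of Jun, Fos and Batf3 are wide.

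The 9 genes' summed FPKM was 237 ± 69.3 in naive WT, 259 ± 9.73 in activated WT and 275 ± 20.4 in activated KO cells (SD, n = 3 each), with overlapping groups. Within that sum the BATF family took a larger share after activation. Batf and Batf3 made up 11.9%, 9.77% and 13.7% of it in naive WT libraries and 27.7%, 23.3% and 26.6% in activated WT libraries. The groups did not overlap and their means differed by 14.1 percentage points (two-sided exact permutation p = 0.1, the smallest p that 3 against 3 libraries can give). In KO libraries the share was 29.8%, 26.2% and 25.5%, overlapping activated WT (difference 1.3 percentage points, exact permutation p = 0.6). The Fos family's share of the summed Fos and Jun family FPKM was 10.7%, 14.1% and 7.67% in naive WT and 7.69%, 10.4% and 7.79% in activated WT libraries. Those groups overlapped (difference -2.19 percentage points, exact permutation p = 0.4).

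**Figure D3:**
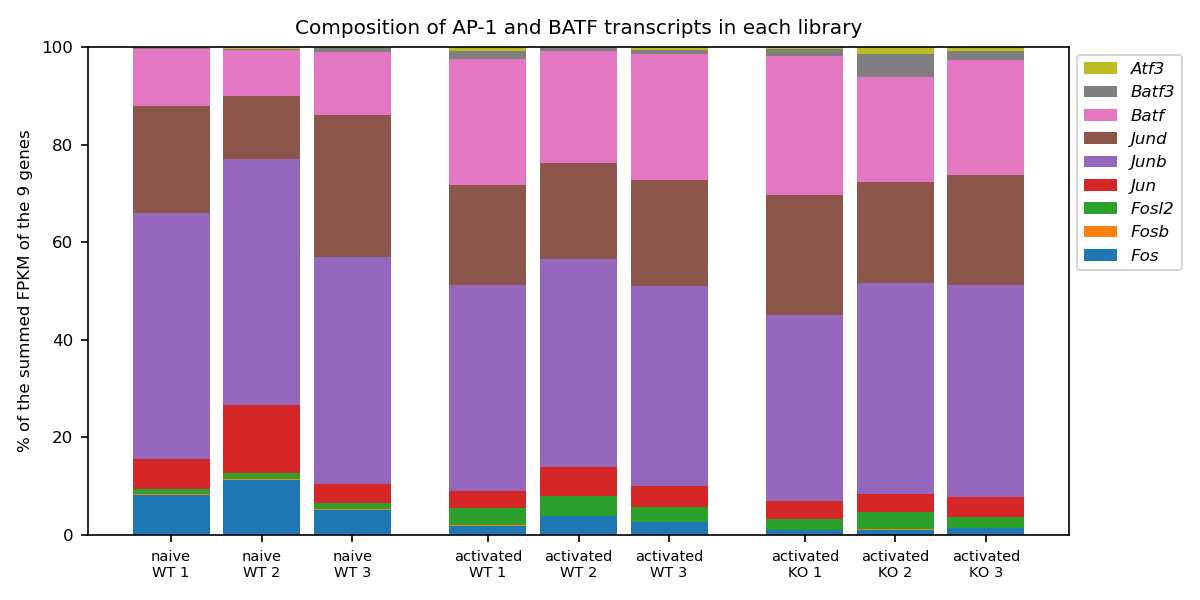
Percentage of the 9 genes' summed FPKM taken by each gene, 1 stacked bar per library, grouped as naive WT, activated WT and activated KO. Junb is the largest segment in every library (38.1% to 50.4%), and the Batf segment grows from 9.52% to 12.9% in naive cells to 21.5% to 28.3% in the activated libraries.

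Naive replicate 2 held the group's highest level of 7 of the 9 genes, namely Fos, Fosb, Fosl2, Jun, Junb, Batf and Atf3, and the lowest level of Jund. Its Jun level was 44.4 FPKM against 13.1 and 7.01 in the other two. In the same library the marker sums for neutrophils, macrophages, NK cells, erythroid cells, and mast cells and basophils were the highest of the group. The macrophage sum was 24.5, 199 and 59.5 FPKM in replicates 1, 2 and 3, and the NK cell sum 11.5, 65 and 34.3. The B cell, CD8 T cell and T cell sums were lowest in replicate 2, and the dendritic cell sum was highest in replicate 3. The order of replicates 1 and 3 was not shared, since Fos, Jun and Junb were higher in replicate 1 and the neutrophil sum in replicate 3. In the activated WT libraries that sum was 0.915, 1.29 and 0.637 FPKM in replicates 1, 2 and 3. Replicate 2 was highest there, both for that sum and for Fos, Fosl2, Jun and Junb. The sum was close to the bottom of the measured range, however, with S100a8 at 0.129, 0.282 and 0 FPKM in these libraries. The part of other cells in these levels was not tested. Without naive replicate 2, Batf and Fosl2 remained called and no gene of the set was called lower.

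**Figure D4:**
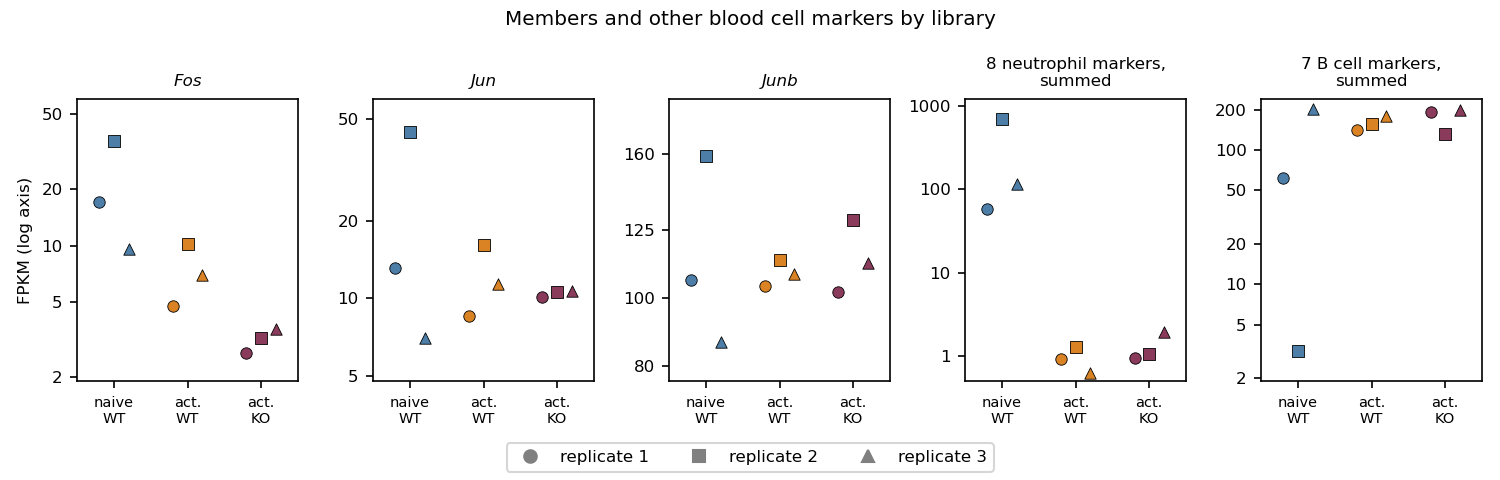
FPKM on log axes of Fos, Jun, Junb, the summed 8 neutrophil markers and the summed 7 B cell markers in each library, with circles, squares and triangles for replicates 1, 2 and 3. Naive replicate 2 is highest of its group for Fos (35.7), Jun (44.4), Junb (159) and the neutrophil sum (685) and lowest for the B cell sum (3.2).

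The second comparison, activated KO with activated WT cells, asked whether loss of BMPR1a changes these factors after activation. Limma called none of the 8 tested genes in either direction, and 1, Batf3, had an unadjusted p under 0.05. Over all genes tested 4.14% were called, 3.30% higher and 0.840% lower. Those were 499 higher and 127 lower genes, or 166 and 140 with median-of-ratios scaling. The groups did not overlap for 2 of the 9 genes, Fos (lower) and Jund (higher), against 31.2% of all genes tested (22.8% higher and 8.36% lower). The median log2 fold change was 0.07 over the 8 genes and 0.06 over all genes.

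Fos was at 2.69, 3.22 and 3.62 FPKM in the KO libraries, below all 3 activated WT values of 4.78, 10.2 and 6.99. The mean was 2.3-fold lower, 3.18 ± 0.465 against 7.31 ± 2.71 FPKM (SD, n = 3 each). The log2 fold change was -0.95 (SE 0.427, 95% interval -1.94 to 0.04), and limma did not call it (adjusted p = 0.217). With array quality weights, a setting that called 25.5% of all genes in this comparison, limma called it at -1.12 (adjusted p = 0.034), and the adjusted p over the 19 alternatives ran from 0.034 to 0.478. The neutrophil sum was 0.637 to 1.29 FPKM in activated WT and 0.943 to 1.93 in KO libraries. The Fos family's share of the Fos and Jun family FPKM was 4.74%, 6.64% and 5.08% in KO libraries, below the 7.69% to 10.4% of activated WT libraries (difference -3.15 percentage points, exact permutation p = 0.1).

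Batf3 was at 3.96, 14.1 and 5.05 FPKM in the KO libraries against 4.05, 1.51 and 2.12 in activated WT. KO replicate 1 lay just below activated WT replicate 1, so the groups overlapped. The log2 fold change was 1.17 (SE 0.473, 95% interval 0.08 to 2.27), and the limma adjusted p was 0.174, with a range of 0.0545 to 0.4 over 19 alternatives. Without KO replicate 2 the log2 fold change was 0.68. Atf3 was likewise highest in KO replicate 2, at 1.21, 4.25 and 1.82 FPKM, and its log2 fold change of 0.46 (95% interval -0.28 to 1.19) was not called (limma adjusted p = 0.423) and was 0.10 without that library.

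KO replicate 2 also had the highest level of its group for Fosl2, which was at 5.97, 10.9 and 5.9 FPKM, and for Junb, at 102, 129 and 112. Neither gene was called against activated WT. The log2 fold change was -0.27 for Fosl2 (95% interval -0.84 to 0.31, limma adjusted p = 0.557) and 0.07 for Junb (95% interval -0.39 to 0.54, adjusted p = 0.875). In the same library Gzmb, the cytotoxic granule protease granzyme B, was at 1054.4 FPKM against 205 and 262 in the other two. The IL-2 receptor alpha chain gene Il2ra, picked out after its values were seen, was at 173 FPKM there against 57.7 and 71.7.

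Jund was at 66.1, 61.6 and 58.4 FPKM in the KO libraries, all above the 50.7 to 57.1 of activated WT. The difference was small, with a log2 fold change of 0.21 (95% interval -0.04 to 0.46, limma adjusted p = 0.265), and Gm11175, which overlaps it, was at 165 ± 9.38 against 146 ± 10.7 FPKM (SD, n = 3 each). Jun was at 10.1, 10.6 and 10.7 FPKM in the KO libraries, a log2 fold change of -0.14 (95% interval -1.42 to 1.15, limma adjusted p = 0.921). Batf was at 76, 64 and 60.9, a log2 fold change of 0.06 (95% interval -0.20 to 0.31, limma adjusted p = 0.817). The signs for Batf and Junb turned negative with median-of-ratios scaling and with quantile normalization, so neither has a direction here. Fosb was at 0.211, 0.162 and 0.19 FPKM, within reach of the 0.126 to 0.195 of activated WT, and was not tested.

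In the third comparison, activated KO with naive WT cells, genotype and activation differ together, and the naive libraries are those of the first comparison. Batf3, Batf, Fosl2, Atf3 and Jund were higher and Fos was lower, which made 6 of the 8 tested genes, where 31.8% of all genes were called higher and 25.1% lower, 56.9% in all. The groups did not overlap for 7 of the 9 genes, 5 higher and 2 (Fos and Fosb) lower, against 63.8% of all genes tested (35.2% higher and 28.7% lower). The log2 fold change was 2.10 for Batf3 (8.75-fold, limma adjusted p = 0.00611, and 1.61 without KO replicate 2), 1.32 for Batf (adjusted p = 5.21e-05), 1.21 for Fosl2 (adjusted p = 0.00396) and -2.21 for Fos (adjusted p = 0.00293), and these 4 calls remained in all 19 alternatives. Atf3 was called at 1.11 (limma adjusted p = 0.0182) but not without naive replicate 1 (1.04) or 3 (1.01), and was 0.75 without KO replicate 2. Jund was called at 0.40 (limma adjusted p = 0.0131) but not with quantile normalization (0.20). Jun (-0.59, limma adjusted p = 0.394) and Junb (0.01, adjusted p = 0.982) were not called. With no filter, Fosb had a log2 fold change of -0.41 (limma adjusted p = 0.00925).

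Fos and Batf are neighbours on chromosome 12, where the interval from the start of Fos to the end of Batf spans 235.2 kb. The start of Jdp2, which encodes a bZIP repressor that competes with Fos for Jun partners, lies 125.1 kb from that of Fos, and the start of Batf 212.8 kb from it. No other gene of the interval has a row in the table used here. Jdp2 was at 0.385, 0.901 and 0.505 FPKM in naive WT and at 8.63, 8.85 and 7.3 in activated WT libraries, without overlap. It rose 13.8-fold (log2 fold change 2.54, SE 0.193, limma adjusted p = 3.97e-05), so that 2 of the 3 genes rose and Fos fell. Batf3 and Atf3 also lie close together, with 120.2 kb between their starts on chromosome 1. Gm38161 and the protein-coding gene Fam71a lie between them and have no row in the table used here.

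**Figure D5:**
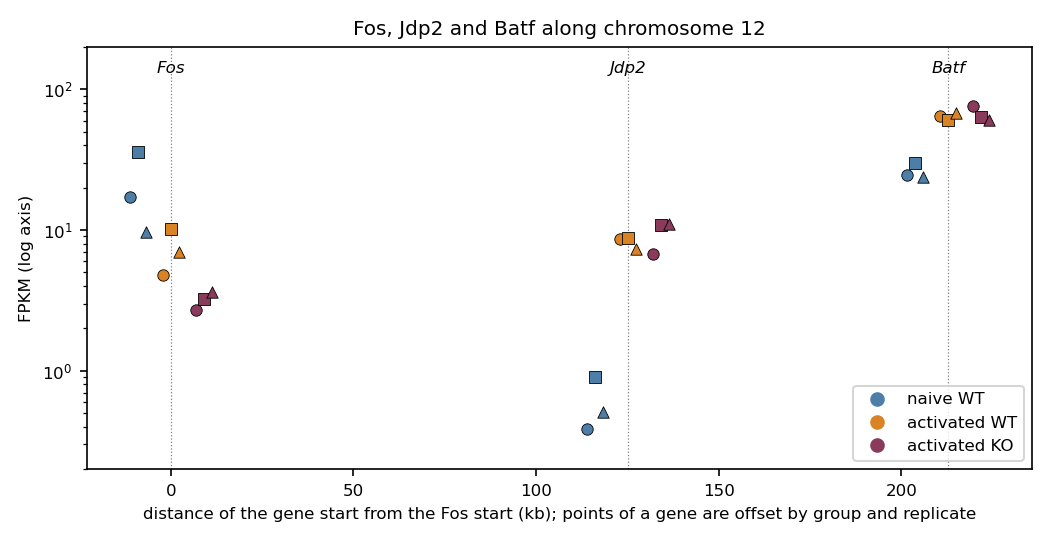
FPKM (log axis) of Fos, Jdp2 and Batf against the distance of each gene's start from that of Fos in kb, with colours for the 3 groups and circles, squares and triangles for replicates 1, 2 and 3. Jdp2 and Batf are higher in every activated than in every naive library, whereas for Fos activated WT replicate 2 (10.2) lies above naive replicate 3 (9.62).

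Among 20 other bZIP genes related to AP-1, 19 had a row and 18 were tested in activated WT against naive WT cells, where 7 were higher and 4 lower, with a median log2 fold change of 0.10. The shares over all genes tested were 26.2% higher and 25.8% lower. Atf7 was not analysed here. Crem, a cAMP-responsive bZIP factor, rose from 8.24 ± 1.95 to 59.5 ± 3.55 FPKM, and Atf6, an endoplasmic reticulum stress sensor, from 1.74 ± 0.284 to 8.44 ± 0.367 (SD, n = 3 each). The remaining Fos and BATF relatives were low, with Fosl1 at 0.207 to 0.776 FPKM and Batf2 at 0 to 0.208 in all 9 libraries. Irf4, the BATF partner, rose from 4.95 ± 1.65 to 43.8 ± 0.929 FPKM (log2 fold change 2.95, limma adjusted p = 2.18e-05). Irf8, the other partner listed, was not analysed here. In the KO against activated WT comparison none of these genes was called, and against naive WT 7 of the 18 were higher and 4 lower.

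Of 22 genes of the upstream MAP kinase pathway, 4 were higher and 8 lower in activated WT than in naive WT cells, with a median log2 fold change of -0.10. That share of called genes is read against the 52.0% of all genes called in this comparison, and 12 of 22 is close to it. The other lists here are read in the same way. Between KO and naive WT the share over all genes was 56.9% (31.8% higher and 25.1% lower). Map3k8 (TPL2), which activates the ERK pathway, rose from 2.8 ± 0.734 to 11 ± 0.63 FPKM and Map3k5 (ASK1) from 10.2 ± 1.31 to 23.5 ± 2.34, while Map3k2 fell from 9.51 ± 1.43 to 5.17 ± 0.37 (SD, n = 3 each). Of 6 genes for serum response factor and its partners, Elk3 rose by 0.47 on the log2 scale and 3 fell, with a median of -0.36. Srf went from 28.5 ± 0.544 to 18.9 ± 1.95 FPKM and Elk4 from 64.1 ± 0.628 to 46.2 ± 5.23 (SD, n = 3 each). None of the genes of either list was called between KO and activated WT cells. Against naive WT, the KO libraries had 9 MAP kinase pathway genes higher and 7 lower, with Mapk8 (JNK1, a kinase of Jun) at 5.43 ± 0.753 against 13.6 ± 1.4 FPKM and Mapk11 at 10.1 ± 0.704 against 21.9 ± 2.85 (SD, n = 3 each), and the same counts of 1 and 3 for the serum response factor list.

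Of 20 immediate early genes outside AP-1, 8 were lower and 5 higher in activated WT than in naive WT cells, with a median log2 fold change of -0.17. Over all genes tested, 25.8% were called lower and 26.2% higher. Ier5 fell from 52.1 ± 5.38 to 10.2 ± 0.129 FPKM, Nfkbia from 91.5 ± 11.2 to 47.5 ± 4.39 and Dusp1, a MAP kinase phosphatase, from 17 ± 9.79 to 5.46 ± 1.05 (SD, n = 3 each). The naive libraries had 12.2, 28.2 and 10.5 FPKM of Dusp1, highest in replicate 2 as Fos was. In the KO against activated WT comparison Gadd45b was the 1 gene of this list called, at 12.8 ± 1.78 against 6.98 ± 0.742 FPKM (SD, n = 3 each, log2 fold change 0.79, limma adjusted p = 0.0288), and the call was lost in 6 of 19 alternatives, among them the fits without any 1 of the activated WT libraries and those without KO replicate 2 or 3. Against naive WT, 7 genes of the list were higher in KO cells, Ier3 and Nr4a3 among them (log2 fold changes 1.91 and 1.45), and 8 were lower.

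Of 21 T cell genes listed as targets of AP-1 or BATF, 19 were tested and 11 were higher and 2 (Tnf and Cd69) lower in activated WT than in naive WT cells, with a median log2 fold change of 1.39. Over all genes tested in this comparison, 26.2% were called higher and 25.8% lower. Gzmb rose from 1.08 ± 0.359 to 232 ± 97.5 FPKM, Il12rb2, a chain of the IL-12 receptor, from 0.769 ± 0.121 to 156 ± 17.3 and the inhibitory receptor Lag3 from 3.4 ± 1.59 to 191 ± 12.4 (SD, n = 3 each). CD8 T cell markers rose between the same groups, and the part of such cells in these rises was not tested. Between KO and activated WT cells 1 was higher and 1 lower, where 3.30% of all genes tested were called higher and 0.840% lower. Lag3 was at 94.2, 99.1 and 92.4 FPKM in KO and 182, 187 and 205 in activated WT libraries, without overlap (0.497 times the activated WT mean, limma adjusted p = 0.0478). That call was lost in 12 of 19 alternatives, over which the log2 fold change ran from -1.08 to -0.95. Ikzf2, which encodes the transcription factor Helios, was at 6.78 ± 1.86 against 3.68 ± 0.158 FPKM (SD, n = 3 each, log2 fold change 0.71, limma adjusted p = 0.0478), a call lost in 15 of 19. Against naive WT, 15 of the 19 were higher in KO cells and 1 was lower. Of all genes tested in that comparison, 31.8% were called higher and 25.1% lower. Ctla4 was at 275 ± 28.9 FPKM in KO against 5.37 ± 0.89 in naive WT cells (SD, n = 3 each).

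The genes most like each member were those with the smallest root mean square difference between their log2(FPKM + 1) profiles over the 9 libraries, each centred on its own mean, among 8714 genes (8715 for Batf3 and Atf3). For Fos they were Ppp1r15a (0.435) and Als2cl (0.455), against an SD of 1.03 for Fos itself. For Jun they were Chordc1 (0.353) and Dnaja1 (0.355), which encode co-chaperones of the heat shock protein system. The naive libraries had 121, 385 and 116 FPKM of Dnaja1, with replicate 2 above the rest as for Jun. For Batf they were Mapre2 (0.108) and Sh2d2a (0.109), the latter encoding the T cell adaptor TSAd, and for Fosl2 Pla2g12a (0.2) and C1qtnf12 (0.22). For Batf3 they were Coro2a (0.302) and Gadd45g (0.393), and Gadd45g was at 7.41, 28 and 8.79 FPKM in the KO libraries, highest in replicate 2 as Batf3 was. The shared peaks of Dnaja1 with Jun and of Gadd45g with Batf3 follow from the choice of genes by profile and are no separate result. Junb was closest to Treml2 (0.109) and Sec24a (0.112), Jund to Ubxn8 (0.0527), and Atf3 to Scarb1 (0.242) and Ift57 (0.243).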

How the data were processed

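The authors deposited 1 table of FPKM values with a column for each of the 9 libraries. Per the submitters' processing notes it was made with TopHat2, Cufflinks and Cuffdiff on GRCm38. The versions, the annotation, the strand setting and the handling of multimapping reads were not given in the sources used here, and the depth per library is unknown, so no counting intervals were computed. Of the 25759 gene identifiers, 24876 matched a symbol. A gene was tested, on log2(FPKM + 1), if its mean over the libraries reached 0.5 FPKM, which held for 15126. The test was limma 3.58.1 in R 4.3.3, with moderated variances that follow the mean level, and group means fitted to the 9 libraries together. P-values were two-sided and adjusted by Benjamini-Hochberg over all genes tested, with a call at an adjusted p under 0.05. The procedure was tested on simulated data. Shares were compared by an exact permutation test (scipy 1.17.1), which cannot go below p = 0.1 here. Positions come from GENCODE M21 (GRCm38). All 9 members were named, and from each of 6 other lists up to 3 called genes per comparison with the largest change and at least 5 FPKM. Il2ra, Tnf, Cd69, Fosl1 and Batf2 fall outside that rule, as do the genes that overlap members. Members and lists were chosen with earlier results of these data known. One result on genes with a profile like that of a member is not reported here. Alternatives varied the pseudocount, filter, scaling, weights, trend, block and libraries.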

Additional observations from a re-analysis of the deposited data

How the results depend on the processing

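Batf and Fosl2 (higher in both activated groups than in naive WT), Batf3 (higher in KO than in naive WT) and Fos (lower in KO than in naive WT) kept their direction and their call in all 19 alternatives. Between activated WT and naive WT, the number of genes of the set called higher was 5 with array quality weights. In that setting 66.8% of all genes were called, against 52.0%. The number called lower was 0 in the fit of only the 6 libraries compared and 0 to 1 when 1 library was left out. With no filter it was 1, but that gene was Fosb and not Fos. With array quality weights 1 gene (Fos) was lower in KO than in activated WT, where 25.5% of all genes were called, against 4.14%. With no filter 2 (Fos and Fosb) were lower in KO than in naive WT. Among differences that were never called, the sign reversed as follows. In activated WT against naive WT, Jun was 0.25 without naive replicate 2 (range over left-out libraries -1.0 to 0.25), and Junb 0.18 without it (-0.26 to 0.18) and 0.03 with array quality weights. In KO against activated WT, Jun was 0.08 without activated WT replicate 2 (-0.34 to 0.08). Junb was -0.00457 with median-of-ratios scaling, -0.01 with quantile normalization and -0.02 without KO replicate 2 (-0.02 to 0.15), and Batf was -0.02, -0.03 and, without KO replicate 1, -0.04 (-0.04 to 0.12). In KO against naive WT, Jun was 0.11 without naive replicate 2 (-1.14 to 0.11), and Junb -0.03 with median-of-ratios scaling, -0.21 with quantile normalization, and -0.04, -0.18 and -0.08 without naive replicate 1, naive replicate 3 and KO replicate 2 (-0.18 to 0.25). The Junb share of the Jun family, in percentage points, ran from -2.29 to 1.02 between activated and naive WT (0.379, 0.573 and 1.02 without activated WT replicate 3, naive replicate 1 and naive replicate 2) and from -2.82 to 0.598 between KO and activated WT, and the BATF share from -0.0163 to 2.19 in the latter. The causes were not tested. Same-numbered libraries of different groups were not treated as pairs. Their deviations from the group means correlated by 0.0027 to 0.054 over 9 pairs, all positive. Over the 18 pairs of different number the correlation was -0.0682 to 0.0375. Whether libraries of the same number share an origin was not tested. With a replicate block, 2 genes of the set were higher and 1 lower in activated than in naive WT, 0 changed between KO and activated WT, and 5 were higher and 1 lower in KO than in naive WT, as without it, while the calls over all genes between KO and activated WT went from 499 higher and 127 lower to 45 and 13. The number of libraries, 3 per group, limits all of these values.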
